A study of Mus musculus with 10 samples.

Results

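Retinal microglia of mice made diabetic with streptozotocin (STZ) at an 8-week diabetic time point were compared with those of littermate controls. The comparison uses 7 of the 10 libraries of the series, chosen by their labels: 3 of Control and 4 of 8wk STZ. The remaining 3 libraries, 4wk STZ, entered the fit to share its estimate of spread and are given only where their values are set beside the others. STZ destroys the pancreatic beta cells that make insulin. All animals, controls included, carried Cx3cr1GFP/+, in which a green fluorescent protein (GFP) reporter takes the place of one copy of the fractalkine receptor gene Cx3cr1. Both retinas of an animal were pooled into 1 sample, and viable GFP-positive cells were sorted. That gate takes microglia and also other myeloid cells that use Cx3cr1. The labels state neither the age of the animals nor their glucose levels, so diabetes and a difference in age cannot be told apart. In bulk RNA, fewer cells of a type and less RNA per cell cannot be told apart either.

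Microglia are the resident macrophages of the retina. They survey the tissue with fine processes, and their surface is dense with receptors, adhesion proteins and ectoenzymes. Such proteins, and secreted and lysosomal ones, are threaded into the endoplasmic reticulum as they are made, folded and glycosylated there, and carried through the Golgi apparatus. A single stretch of hydrophobic residues usually serves as the signal that directs a protein to this route or anchors it in the membrane.

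Library totals ran from 45656309 to 54312248 reads in Control and from 46143178 to 62903489 in 8wk STZ, with 22853 to 23440 and 24343 to 25131 genes holding a read. The 10 microglia markers, all with reads in these libraries, took 4.02 ± 0.178% of reads in Control and 3.42 ± 0.179% in 8wk STZ (mean ± SD, n = 3 and 4). On the second principal component over the tested genes (14.7% of the variance), Control 3 lay at 53.7, 4wk STZ 3 at -58.5 and the other 8 libraries between -15.2 and 8.83. Without Control 3 and 4wk STZ 3 together, 275 genes were called in the comparison below (137 higher, 138 lower), and calls lost without a single library are given beside each group of genes. In the authors' deposited table, made with a likelihood ratio statistic, 1055 of 14475 genes had an FDR below 0.05 at 8 weeks, 520 higher and 535 lower.

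Of 55487 genes, 18957 passed the filter on low counts. Of these, 449 differed between the groups (edgeR's quasi-likelihood test, Benjamini-Hochberg adjusted p below 0.05, here termed called), which is 2.37% of those tested. The calls split into 184 that rose (0.971%) and 265 that fell (1.4%). Scaling moved this split: rises made up 41.0% of the calls with TMM factors, 66.0% with library totals alone and 30.9% with upper-quartile factors. The median log2 fold change of all genes was -0.01 with TMM factors and 0.10 with totals alone. For every called gene the 7 libraries fell into groups that did not overlap, which also held for 16.9% of all tested genes (8.91% higher and 7.99% lower). An unadjusted p below 0.05 was held by 2970 of the 18957 tested genes, and DESeq2 called 1451, 736 higher and 715 lower. Counts of these kinds in the gene lists below are to be read against these values for all genes.

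Many calls were of well expressed genes that changed by less than 2-fold. Among the 4576 genes with a mean log2 CPM (a gene's reads relative to its library's TMM-scaled total) of at least 5, 304 were called (6.64%), 113 higher (2.47%) and 191 lower (4.17%). Groups did not overlap for 25.9% of the genes at this level. Of those 304, 220 changed by less than 1 on the log2 scale, 89 upwards and 131 downwards. Of these 220, 50 stayed called whichever of the 7 libraries was left out (17 higher, 33 lower). The 84 larger changes comprised 24 rises and 60 falls, and most of the steepest falls were of photoreceptor genes, described last.

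**Figure D1:**
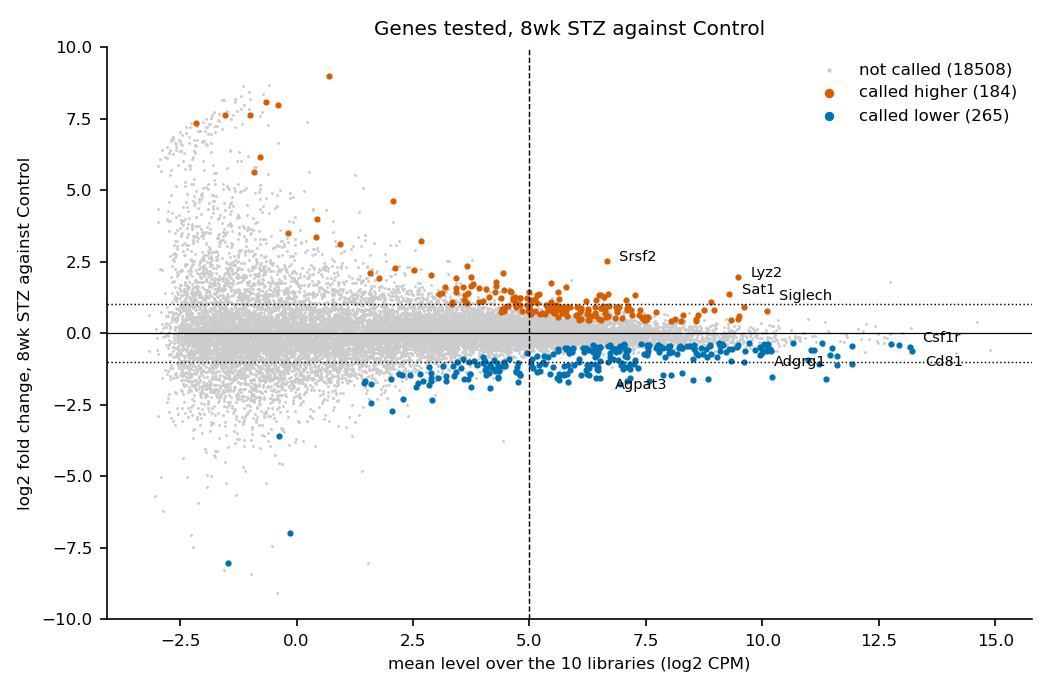
Each point is 1 of the tested genes, with its mean level over the 10 libraries (log2 CPM) on the x axis and its log2 fold change in 8wk STZ against Control on the y axis. Of the called genes (orange higher, blue lower), 304 lie right of the dashed line at a level of 5, and 220 of these lie between the dotted lines at 1 and -1. The plot leaves out 1 called gene with a fold change beyond 10 on the log2 scale.

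The following values are in CPM, in the order Control 1, 2 and 3 and 8wk STZ 1, 2, 3 and 4. Among well expressed genes, the lowest p of the falls under 2-fold belonged to Agpat3 (ENSMUSG00000001211, chromosome 10, 78269178 to 78352489, minus strand, GRCm38), an acyltransferase of the endoplasmic reticulum that makes membrane phospholipids. Agpat3 stood at 210.1, 213 and 200.2 CPM in Control and 98.3, 109, 121 and 109 CPM in 8wk STZ (log2 fold change -0.93, SE 0.0906, adjusted p = 0.000824). All 4 diabetic libraries were far under the lowest control. For rises under 2-fold, the lowest p belonged to Tpm3 (ENSMUSG00000027940, chromosome 3, 90072649 to 90100902, plus strand), a tropomyosin that coats actin filaments, at 571, 609.9 and 561 CPM in Control and 847, 932, 897 and 856 CPM in 8wk STZ (log2 fold change 0.60, SE 0.0732, adjusted p = 0.00286). The Control libraries stood within a narrow band below every diabetic library. Near-identical processed copies of Tpm3 in the genome leave the share of its reads uncertain.

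**Figure D2:**
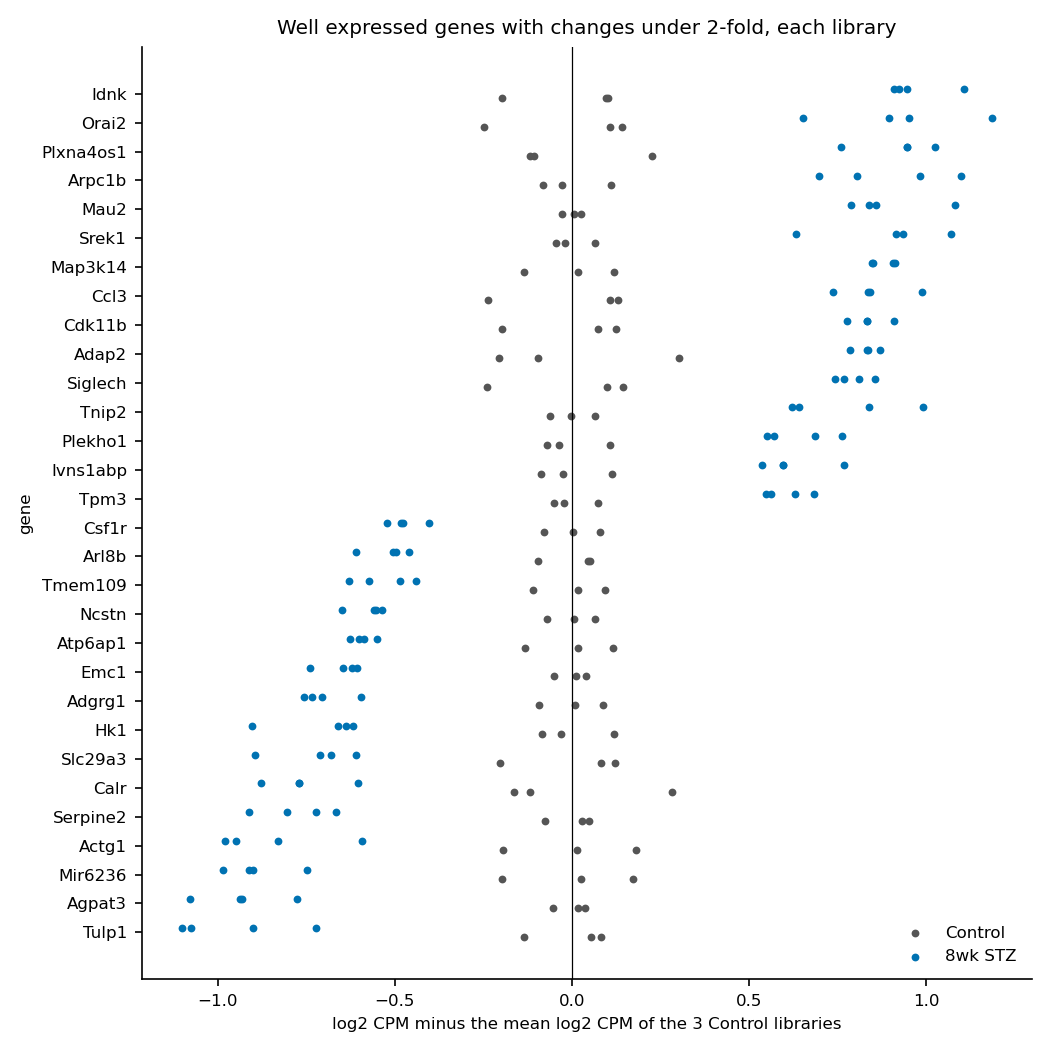
Each row is 1 of the 30 genes of at least 5 log2 CPM that changed by less than 2-fold and stayed called whichever library was left out, with the lowest p in each direction (15 and 15). Points are single libraries as log2 CPM minus the mean of the 3 Control libraries (grey Control, blue 8wk STZ). Groups without overlap were a condition of the choice.

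Proteins with a long hydrophobic stretch made up unlike shares of the modest falls and rises, given here as a description with no test. Each gene's longest coding sequence was translated and searched for a stretch of 19 residues with a mean Kyte-Doolittle hydropathy of at least 1.6, the length and greasiness of a membrane-spanning helix. Such a stretch was present in 89 of the 126 coding genes that fell by less than 2-fold (70.6%) and in 21 of the 84 that rose (25%). It was present in 33.5% of the 4183 well expressed genes of similar size of change that were not called. Leaving out each library in turn, the share among falls ran from 60.8% (without 8wk STZ 1) to 74.6% (without 8wk STZ 2). Among rises it ran from 12.5% (without Control 1) to 38.1% (without Control 2). With listed markers of other cells and mitochondrial genes left out, 121 of the 126 coding falls remained and the share was 70.2%. So few were left out that the share could hardly change. Photoreceptor genes outside the marker lists, such as Tulp1, stayed in, and the part of other retinal cells was not tested.

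Over all 1554 well expressed genes whose protein holds such a stretch, 120 fell and 28 rose, with a median log2 fold change of -0.11. Over the 2929 whose protein lacks one, 61 fell and 79 rose, with a median of 0.02. Scaling by totals alone moved both medians up together, to -0.01 and 0.12. Among genes with changes under 2-fold, the falls encoded proteins of a median 474.5 residues, the rises 568.5 and the uncalled genes 423. Their median exonic lengths were 4163, 4818 and 4448 bases, and their median GC contents 49.9%, 50.0% and 49.6%. The search also finds signal peptides and the cores of some soluble proteins, so it describes sequence and not location.

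**Figure D3:**
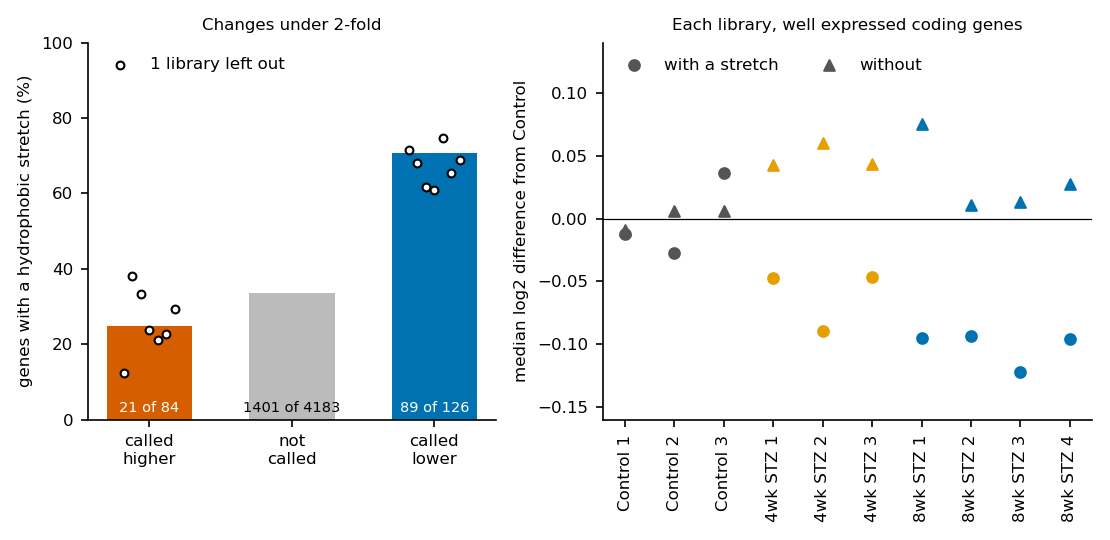
Left, the percentage of well expressed coding genes with a hydrophobic stretch among those called higher (21 of 84), not called (1401 of 4183) and called lower (89 of 126), changes under 2-fold only, with open circles for fits that left out 1 library. Right, the median over genes of log2(CPM + 0.5) minus the Control mean in each library, markers of other cells and mitochondrial genes left out. Genes with a stretch (circles) lie at -0.09 to -0.12 in 8wk STZ and those without (triangles) at 0.01 to 0.08. In 4wk STZ the same classes lie at -0.05 to -0.09 and at 0.04 to 0.06, so the split is not particular to 8wk STZ.

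A group of 24 genes of the secretory pathway, picked from the calls by function after their values were seen, fell by 0.40 to 0.80 on the log2 scale. Their count is thus no measure of the pathway, for which whole families and lists are given below. For folding they include the lectin chaperones Calr (calreticulin) and Canx (calnexin) and Uggt1, the glucosyltransferase that returns misfolded glycoproteins to them. For N-glycosylation they include Stt3a and Rpn2 of the oligosaccharyltransferase and Alg2, a mannosyltransferase of glycan assembly. Ssr1 and Ssr2 belong to the translocon-associated complex, Emc1 to the membrane insertion complex, and Derl1 to the export of misfolded proteins for degradation. Gpaa1 and Pigu attach the glycolipid anchor of surface proteins, and Plod1 and Plod3 hydroxylate lysine in collagens. Lman1, Lman2l, Tmed10, Kdelr2, Copa, Gorasp2, Tm9sf2, Golt1b and Yif1b act in transport between the reticulum and the Golgi. Tmem109 is a further membrane protein of this compartment.

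A promoter element shared by chaperone genes of the endoplasmic reticulum was looked for in RefSeq promoters of GRCm38.p6 (250 bases before to 50 after the start). The element is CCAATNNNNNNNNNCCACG, searched on both strands, and 39 of the 32851 promoters (0.119%) held it. The matches of Calr, Canx and Hspa5 (BiP, the main chaperone of the compartment) are shown because these are its best known carriers and their values differ. Capitals mark the match, which in Calr lies on the opposite strand. The windows are chr8:84847035-84847133 (minus strand) for Calr, chr11:50325760-50325858 (minus strand) for Canx and chr2:34771985-34772083 (plus strand) for Hspa5.
Calr: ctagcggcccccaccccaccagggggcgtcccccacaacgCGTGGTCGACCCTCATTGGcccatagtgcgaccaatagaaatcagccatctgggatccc
Canx: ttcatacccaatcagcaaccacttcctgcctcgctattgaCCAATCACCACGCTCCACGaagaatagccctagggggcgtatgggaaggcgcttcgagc
Hspa5: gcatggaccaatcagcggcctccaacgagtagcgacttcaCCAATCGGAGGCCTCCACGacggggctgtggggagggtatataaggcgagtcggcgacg

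Calr stood at 449, 613 and 464 CPM in Control and 295, 274, 331 and 295 CPM in 8wk STZ (log2 fold change -0.77, SE 0.114, adjusted p = 0.00887). Canx was at 1121, 1469 and 1503 CPM in Control and 951, 989.9, 938 and 826 CPM in 8wk STZ (log2 fold change -0.56, SE 0.118, adjusted p = 0.0355). Both were lower in every diabetic library than in any control, whereas Hspa5 did not pass, at 1014, 1567 and 937 CPM in Control and 1191, 1021, 922 and 1149 CPM in 8wk STZ (log2 fold change -0.13, SE 0.176, adjusted p = 0.822). The log2 fold change of Hspa5 was 0.13 without Control 2, the library with its highest level. Hsp90b1 (GRP94) and Pdia6, which carry the same element, did not pass either (log2 fold changes -0.16 and -0.42, adjusted p = 0.586 and 0.182). Of the 9 well expressed genes with the element, all had a fold change below 0 and 2 were called. Some lay near 0 for their SE, such as Dnajc3 (-0.09, SE 0.112) and Creld2 (-0.29, SE 0.312). The element was present in 20 tested genes in all. Of those at lower levels none was called, and Pan2, Derl3 and Acacb had fold changes above 0 (0.50, 0.35 and 0.16). Among well expressed coding genes, 63.4% of those with a hydrophobic stretch and 47.1% of those without were below 0.

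Elsewhere in the pathway, Stt3a stood at 413, 505 and 418 CPM in Control and 299, 311, 301 and 299.6 CPM in 8wk STZ (log2 fold change -0.56, SE 0.0913, adjusted p = 0.0124). The 4 diabetic libraries lay close together, well below the lowest control. Emc1 stood at 143, 137 and 146 CPM in Control and 84.9, 93.0, 92.2 and 90.5 CPM in 8wk STZ (log2 fold change -0.65, SE 0.09, adjusted p = 0.00549), and Tmed10, a cargo receptor of transport vesicles, at 598, 646 and 645 CPM in Control and 467, 475, 467 and 436 CPM in 8wk STZ (log2 fold change -0.45, SE 0.0696, adjusted p = 0.00978). Neither gene's groups came near each other. Emc1 shares 29.3% of its exonic sequence with an antisense gene, and the library kit does not mark strand. For the same reason reads of Yif1b, Ctsl, Lat2, Ddx41 and Arhgap22 are uncertain, each sharing 17.4% to 36.9% of its exonic sequence with a gene on the other strand.

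Families taken whole, after their values were seen, varied. Of 12 oligosaccharyltransferase subunits, 2 fell, 10 had a fold change below 0, and 7 were lower without overlap (median -0.31). Of all tested genes 7.99% were lower without overlap. Of 12 ALG enzymes, which assemble the glycan, Alg2 fell and Alg13 rose by 2.10 (median -0.34), though neither call held in any of the 7 fits that left out a library (Alg13 up to an adjusted p of 0.105 without 8wk STZ 2). The membrane insertion complex had 1 fall among 9 genes (median -0.00), the GPI anchor genes 2 among 21 (median -0.15) and the TMED cargo receptors 1 among 9 (median -0.16). All 3 LMAN cargo lectins were lower without overlap, 2 of them called (median -0.42). The 6 genes of the SEC61 channel and the 10 of the signal recognition particle and its receptor had no call by edgeR's quasi-likelihood test, with medians of 0.06 and 0.01 and 1 and 0 genes at an unadjusted p below 0.05. In the list of Golgi and secretory trafficking, 5 of 51 tested genes fell and none rose, and 24 were lower without overlap (median -0.24). With library totals alone 3 of them fell, and with upper-quartile factors 8. Of 35 genes of the unfolded protein and integrated stress response, 3 fell (Calr, Canx and Derl1) and 2 rose (Ppp1r15a and Ddit3, below), with a median of -0.20, and with totals alone 1 fell and 2 rose. Of 38 heat shock proteins and chaperones, 2 fell (Hsp90aa1 by 0.80 and Hspa13 by 0.73, the latter with adjusted p = 0.104 without Control 3) and none rose (median -0.13).

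Among the 24 secretory genes named above, Calr, Stt3a, Emc1, Lman1, Tmed10, Plod1 and Tmem109 were called whichever library was left out. The other 17 lost the call at least once, from Tm9sf2 (adjusted p = 0.056 without Control 2) to Pigu (0.159 without Control 3).

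**Figure D4:**
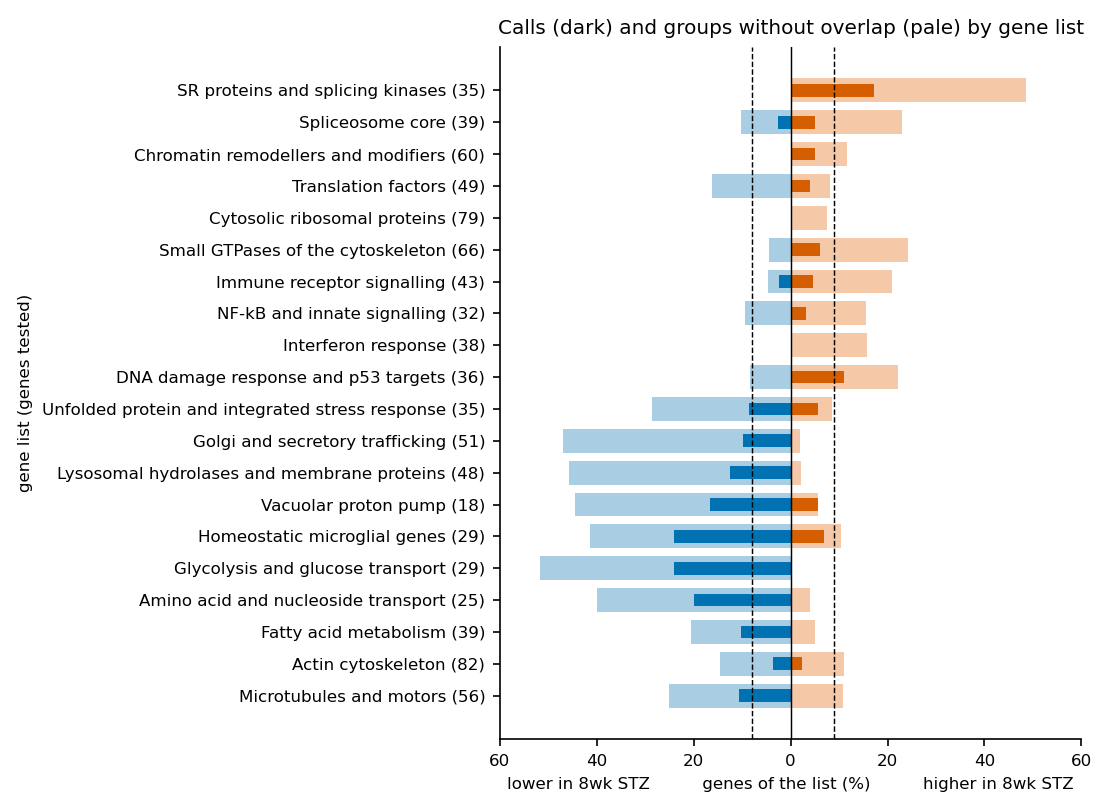
For 20 gene lists, dark bars give the percentage of tested genes called higher (orange) or lower (blue) in 8wk STZ and pale bars the percentage whose groups do not overlap. Dashed lines mark the same non-overlap over all tested genes (8.91% higher, 7.99% lower). Here 17 of 35 SR protein and splicing kinase genes lie higher, and 24 of 51 Golgi genes and 22 of 48 lysosomal genes lower. The lines are a low reference for well expressed lists, such as the Golgi and lysosomal lists with 41 genes each at level 5 or above. At that level groups did not overlap for 25.9% of genes in either direction, against 16.9% of all tested genes.

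The receptors, adhesion molecules and secreted proteins of microglia that fell and are named here number 16, picked after their values were seen, while the lists of surface proteins had few calls. None of 20 chemoattractant receptors (median -0.25) and none of 26 phagocytic and scavenger receptors (median -0.10) was called by edgeR's quasi-likelihood test. At an unadjusted p below 0.05 they held 6 and 8 genes, and DESeq2 called 5 lower in the first and 1 higher and 4 lower in the second. Of 24 sialic acid and inhibitory receptors 2 rose (Siglech, below, and Cd200r4 by 2.26), and of 29 cytokine and growth factor receptors 1 rose (Il10ra, below) and 1 fell (Csf1r). Toll-like and C-type lectin receptors had 1 rise (Clec7a, below) and 1 fall (Tlr9, by 0.97) among 21, complement 1 rise among 17 (Serping1, nearly without reads in Control), and growth factors and matrix proteins 1 fall among 33 (Serpine2). The calls of Cd200r4, Tlr9 and Serping1 were lost at least once (adjusted p = 0.0674 without 8wk STZ 2, 0.114 without Control 3 and 0.104 without Control 1).

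Csf1r, the receptor for the growth factors on which microglia depend, stood at 10752, 10162 and 11329 CPM in Control and 7716, 7680.3, 7478 and 8115 CPM in 8wk STZ (log2 fold change -0.47, SE 0.0641, adjusted p = 0.00525). Adgrg1 (chromosome 8, 94974751 to 95014217, plus strand), the adhesion receptor GPR56, was at 1287, 1199.7 and 1360.4 CPM in Control and 769.7, 786, 848 and 759 CPM in 8wk STZ (log2 fold change -0.70, SE 0.075, adjusted p = 0.00153). Its highest diabetic library was well below its lowest control. Serpine2, a secreted inhibitor of serine proteases, stood at 1386, 1272 and 1367 CPM in Control and 813, 768, 844 and 713 CPM in 8wk STZ (log2 fold change -0.77, SE 0.0865, adjusted p = 0.00216). In 4wk STZ 1, 2 and 3 it was at 949, 798 and 927 CPM, of which 4wk STZ 2 lay within the range of the later group and the others between both groups. Reads of Csf1r may be shared with Hmgxb3, which overlaps 15.1% of its exonic sequence on the opposite strand and had a log2 fold change of 0.03.

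Cd81, a tetraspanin, had means of 11613 ± 1314 CPM in Control and 7524 ± 608 CPM in 8wk STZ (± SD, n = 3 and 4), a fall of 0.63 (adjusted p = 0.0115). Cd53, a tetraspanin of leukocytes, fell by 0.60 on the log2 scale. Of 25 tetraspanins 4 fell and none rose (median -0.29), the others being Tspan7 and Tspan31, by 0.51 and 0.55 (adjusted p = 0.0794 without Control 3 and 0.0776 without Control 3). Ncstn, nicastrin, a subunit of the gamma-secretase that cleaves membrane proteins, stood at 507, 534 and 557 CPM in Control and 361, 367, 339 and 363 CPM in 8wk STZ (log2 fold change -0.57, SE 0.0719, adjusted p = 0.00343), with no overlap. P2ry13, a receptor for ADP, and Entpd1, the ectoenzyme CD39 that degrades extracellular ATP and ADP, fell by 0.59 and 0.40 (adjusted p = 0.0143 and 0.0187). Genes that fell by 0.41 to 0.85 were the macrophage receptor Adgre1 (F4/80), the microglial markers Tmem119 and Fcrls, the fatty acid receptor Gpr84, the oxysterol receptor Gpr183, the death receptor Tnfrsf21, the adhesion molecule Cadm1 and Nrros, which holds latent TGF-beta at the surface.

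Of 29 homeostatic microglial genes 7 fell and 2 rose (Siglech, below, and Bin1, a membrane-bending protein, by 0.43 but with an adjusted p of 0.138 without Control 3), with a median of -0.28, and of 25 integrins and adhesion molecules 3 fell and none rose (median -0.17). Csf1r, Adgrg1, Serpine2, Cd81 and Ncstn were called whichever library was left out. The other 11 of the 16 genes that fell lost the call at least once, from Cd53 (adjusted p = 0.0501 without Control 3) to Gpr183 (0.15 without Control 3). Gpr84 shares 39.5% of its exonic sequence with an antisense gene.

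Of the 13 lysosomal genes named here 12 fell and 1 rose. Laptm5, a lysosomal membrane protein of blood cells, stood at 8938, 8752 and 9375 CPM in Control and 6704, 6237, 6835 and 7092 CPM in 8wk STZ (log2 fold change -0.43, SE 0.0669, adjusted p = 0.0103). Atp6ap1, which assists assembly of the vacuolar proton pump of lysosomes, was at 1038, 1149.6 and 1233 CPM in Control and 777, 737, 757 and 749.8 CPM in 8wk STZ (log2 fold change -0.59, SE 0.0754, adjusted p = 0.00359). The 4 diabetic values of Atp6ap1 lay close together, below all controls. Slc29a3, which carries nucleosides across the lysosomal membrane, stood at 678, 541 and 659 CPM in Control and 335, 381, 409 and 389 CPM in 8wk STZ (log2 fold change -0.73, SE 0.0971, adjusted p = 0.00525). Arl8b, the small GTPase that moves lysosomes along microtubules, fell by 0.52 (adjusted p = 0.00978).

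Hydrolases among the falls were Glb1 and Idua, which remove sugars, the proteases Tpp1, Ctsl and Ctsc, and Naaa, which hydrolyses fatty acid ethanolamides. Npc1, which exports cholesterol from lysosomes, and Laptm4b fell as well. Tcirg1, the a3 subunit of the proton pump, went the other way, with means of 167 ± 11.1 CPM in Control and 228 ± 10.7 CPM in 8wk STZ (± SD, n = 3 and 4), a rise of 0.45 (adjusted p = 0.0226). In all, 6 of 48 lysosomal hydrolases and membrane proteins fell and none rose, and 22 were lower without overlap (median -0.25). That count was 1 with library totals alone and 10 with upper-quartile factors. The proton pump list had 3 falls and 1 rise among 18 (median -0.20), and cathepsins and cystatins 3 falls among 18 (median -0.04). With totals alone the latter had no fall and 1 rise (median 0.07). By contrast, of 48 autophagy genes and 39 proteasome genes none was called by edgeR's quasi-likelihood test (medians 0.02 and -0.01, of which the first was -0.02 with upper-quartile factors and the second 0.09 with totals alone). At an unadjusted p below 0.05 there were 7 and 5, and DESeq2 called 2 autophagy genes higher and 1 proteasome gene lower. Over all 18957 tested genes, 2970 had an unadjusted p below 0.05 and DESeq2 called 1451. Laptm5, Atp6ap1, Slc29a3 and Arl8b held in all 7 fits that left out a library. The other 9 lost the call at least once, from Naaa (adjusted p = 0.0673 without Control 3) to Idua (0.143 without Control 2).

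Agpat3 was 1 of 14 lysophospholipid acyltransferases, a family taken whole after its values were seen, of which 4 fell and none rose. Fold changes in the family ran from -0.93 to 1.93, 9 of them below 0 (median -0.17). Lpcat3, which inserts polyunsaturated acyl chains into phospholipids, stood at 248, 225 and 238 CPM in Control and 133, 158, 166 and 132 CPM in 8wk STZ (log2 fold change -0.69, SE 0.114, adjusted p = 0.0132), the groups lying far apart. Lpcat2 and Mboat7, acyltransferases of the same reaction type, fell by 0.48 and 0.65. Abcg1 (sterol efflux), Daglb (synthesis of the endocannabinoid 2-arachidonoylglycerol), Ptgs1 (cyclooxygenase-1), Scd2 (fatty acid desaturation) and Hsd17b12 (fatty acid elongation) fell by 0.85, 0.42, 0.36, 1.09 and 0.43. None of 33 phosphoinositide and sphingolipid enzymes was called by edgeR's quasi-likelihood test (median -0.13), with 7 at an unadjusted p below 0.05 and 1 higher and 4 lower by DESeq2. Daglb and Rac1 overlap on opposite strands, and Rac1 had a fold change of -0.34.

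Transporters among the falls were Slc29a1 (nucleosides), Slc46a1 (folate) and Slc7a8 (neutral amino acids), by 0.43 to 0.57. Of 25 amino acid and nucleoside transporters 5 fell and none rose (median -0.27), against 2 falls with library totals alone. Besides Slc29a3 they include the glutamate transporter Slc1a3, which is also among the markers of Müller glia and astrocytes and fell by 0.90 (adjusted p = 0.0748 without Control 3). Of 39 genes of fatty acid metabolism 4 fell and none rose (median -0.05), and with totals alone 2 fell and 1 rose (median 0.05). Apart from Slc29a3 and Slc1a3, given above, only Agpat3 and Lpcat3 of these lipid and transport genes were called whichever library was left out. The other 10 lost the call at least once, from Daglb (adjusted p = 0.0748 without Control 3) to Mboat7 (0.143 without Control 3).

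Of 29 glycolysis genes 7 fell and none rose, with 15 lower without overlap (median -0.36). Of all tested genes 7.99% were lower without overlap. At level 5 or above, where 23 of the 29 glycolysis genes lie, groups did not overlap for 25.9% of genes in either direction. In a fit of only the 7 libraries of Control and 8wk STZ, 5 of the 29 fell, without calls for Tpi1 and Aldoc. Hk1, hexokinase, which commits glucose to the pathway, stood at 125, 138 and 120.2 CPM in Control and 81.9, 83.0, 68.2 and 80.7 CPM in 8wk STZ (log2 fold change -0.70, SE 0.0978, adjusted p = 0.00581), lowest in 8wk STZ 3. Eno1 (enolase) and Pkm (pyruvate kinase) fell by 0.62 and 0.63, Aldoa by 0.59, and Pgam1, Tpi1 and Aldoc by 0.65, 0.57 and 1.28. Hk1, Aldoa, Eno1 and Pkm were called whichever library was left out, while Pgam1, Tpi1 and Aldoc lost the call at least once (adjusted p up to 0.124, Aldoc without Control 3). Aldoc is also among the markers of Müller glia and astrocytes, of which 4 of 16 fell (median -0.97), and the part of such cells in its fall was not tested. Of 35 genes of the insulin, AKT and mTOR pathway none was called by edgeR's quasi-likelihood test (median -0.02, or 0.09 with library totals alone). Neither was any of 25 genes of sterol synthesis (median -0.17) or 34 NRF2 targets and redox enzymes (median 0.02, or -0.02 with upper-quartile factors). At an unadjusted p below 0.05 these lists held 4, 7 and 6 genes, and DESeq2 called 2 higher, 2 lower and 2 lower. Of the 74 nuclear subunits of oxidative phosphorylation 1 fell, Sdha of complex II, by 0.43 (adjusted p = 0.0613 without Control 2, list median -0.00, or 0.10 with library totals alone).

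Cytoskeletal genes moved both ways. Arpc1b, a subunit of the Arp2/3 complex that nucleates branched actin, stood at 525, 545 and 600.3 CPM in Control and 1189.5, 901, 972 and 1099 CPM in 8wk STZ (log2 fold change 0.90, SE 0.115, adjusted p = 0.00401). Its lowest diabetic library was above its highest control. Pdap1, which shares 18.2% of the exonic sequence of Arpc1b on the opposite strand, had a fold change of 0.24. Dpysl2, a tubulin-binding protein, stood at 3071, 3412 and 3765 CPM in Control and 1910.1, 1948, 2219.5 and 1878 CPM in 8wk STZ (log2 fold change -0.78, SE 0.129, adjusted p = 0.0128), all diabetic libraries below the controls. Cyfip1 of the WAVE complex, the actin disassembly factor Wdr1 and the bundling protein Fscn1 fell by 0.37, 0.36 and 0.52, and the tubulins Tubb5 and Tubb2a by 0.64 and 0.49. Actg1 fell by 0.84, but near-identical actin genes and copies leave its reads uncertain.

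Of 82 actin genes 2 rose and 3 fell (median -0.01), and with library totals alone 5 rose and 1 fell (median 0.10). Of 56 microtubule and motor genes 6 fell and none rose (median -0.10), and with totals alone 4 fell and 2 rose (median 0.00). Besides Tubb5 and Tubb2a these were the axonal motor Kif1a, the microtubule-associated protein Map1b, the tubulin Tubb4a and Ttll11, a ligase of the tubulin tyrosine ligase family, by 1.56, 1.28, 1.89 and 2.31. Map1b, Tubb4a and Ttll11 lost the call at least once (adjusted p = 0.0742 without 8wk STZ 4, 0.142 without Control 2 and 0.0995 without Control 3). Kif1a, Map1b and Tubb4a are known from neurons, and their falls stand beside those of the neuronal markers Snap25, Syt1 and Nefl, described last, whose part was not tested. The 66 small GTPases of the cytoskeleton and their regulators had 4 rises and no fall (median 0.10). In this list 16 were higher without overlap, against 8.91% of all tested genes. The 4 were the exchange factors Plekhg2, Fgd2 and Arhgef1 and the GTPase activator Arhgap22, which rose by 2.33, 0.81, 0.48 and 0.67. Tpm3, Arpc1b, Plekhg2, Actg1 and Dpysl2 held in all 7 fits that left out a library, while 8 others lost the call at least once, from Fgd2 (adjusted p = 0.0698 without Control 2) to Tubb2a (0.168 without Control 3).

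Several regulators of pre-mRNA splicing rose. Of 35 SR proteins and splicing kinases, 6 rose and none fell, and 17 were higher without overlap (median 0.35). Srsf2, an SR protein that binds splicing enhancers, rose most of these, and stood at 36.2, 31.6 and 34.5 CPM in Control and 149, 244, 214 and 178 CPM in 8wk STZ (log2 fold change 2.52, SE 0.211, adjusted p = 0.000392). The kinases Clk1, Clk4 and Srpk1, which phosphorylate SR proteins, rose by 0.90, 1.15 and 0.61, and Ccnl1, a cyclin of nuclear speckles, by 1.44. Arglu1, an arginine and glutamate rich coregulator of splicing (chromosome 8, 8665075 to 8690521, minus strand), stood at 94.2, 87.1 and 89.2 CPM in Control and 199.7, 247, 247 and 214 CPM in 8wk STZ (log2 fold change 1.33, SE 0.11, adjusted p = 0.000392). Prpf38b was at 30.3, 26.1 and 29.7 CPM in Control and 72.6, 93.1, 70.6 and 75.5 CPM in 8wk STZ (log2 fold change 1.44, SE 0.136, adjusted p = 0.000753). Every diabetic library of Arglu1 and of Prpf38b was above 2 times the highest control. Mettl23 on the opposite strand shares 15.6% of the exonic sequence of Srsf2 and had a fold change of 0.16.

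Srek1, a splicing regulator of the SR type, stood at 38.1, 35.3 and 35.9 CPM in Control and 68.7, 76.6, 56.5 and 69.7 CPM in 8wk STZ (log2 fold change 0.90, SE 0.141, adjusted p = 0.0106), and Cdk11b, a kinase that binds L-type cyclins, at 35.6, 36.9 and 29.5 CPM in Control and 63.6, 57.9, 60.3 and 60.3 CPM in 8wk STZ (log2 fold change 0.83, SE 0.138, adjusted p = 0.0131). In both, every control lay below each diabetic library. Rsrc2, Prpf39, Snrnp70 of the U1 particle, Hnrnpdl, Bclaf1 and the nuclear anchoring proteins Akap8 and Akap8l rose by 0.64 to 1.27. The core of the spliceosome had 2 rises and 1 fall (Sf3a1 of the U2 particle, by 0.78, adjusted p = 0.137 without Control 2) among 39 genes (median 0.04). With upper-quartile factors it had 1 rise and 2 falls (median -0.01) and with library totals alone 4 rises. Of 43 hnRNP and RNA-binding proteins 1 rose (median -0.08), or 3 with totals alone (median 0.03). Srsf2, Clk4, Arglu1, Prpf38b, Srek1 and Cdk11b were called whichever library was left out. The other 10 lost the call at least once, from Akap8 (adjusted p = 0.0576 without Control 1) to Snrnp70 (0.131 without Control 2).

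Of 49 translation factors 2 rose and none fell, while 31 had a fold change below 0 (median -0.12). Eif4a2, an RNA helicase of the cap-binding complex, stood at 84.0, 99.9 and 78.3 CPM in Control and 175, 214, 176 and 209 CPM in 8wk STZ (log2 fold change 1.15, SE 0.162, adjusted p = 0.0066), with no overlap, and its scaffold Eif4g1 rose by 0.93. Gigyf1, which represses translation from the cap, rose by 1.12. None of the 79 cytosolic ribosomal protein genes (median -0.07, or 0.03 with library totals alone) and none of 43 ribosome biogenesis genes (median 0.04, or -0.01 with upper-quartile factors) was called by edgeR's quasi-likelihood test. Each list held 5 genes at an unadjusted p below 0.05, and DESeq2 called 1 and 3 higher. Over all 18957 tested genes, 2970 had an unadjusted p below 0.05 and DESeq2 called 736 higher.

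Of 60 chromatin proteins 3 rose and none fell (median 0.11), and 7 were higher without overlap, against 8.91% of all genes. With upper-quartile factors 1 rose. The 3 were Brd2, which reads acetylated histones, Dnmt3a, which methylates DNA, and Tet2, which oxidises methylcytosine, by 0.73, 0.46 and 0.79. Pou2f2, the transcription factor OCT2 of lymphoid and myeloid cells, stood at 50.8, 53.8 and 58.1 CPM in Control and 132, 134, 148 and 127 CPM in 8wk STZ (log2 fold change 1.32, SE 0.109, adjusted p = 0.000392). Its levels in diabetic libraries were all above 2 times the highest control. Lyl1 and Batf3 rose by 0.51 and 0.83, and Etv5 fell by 0.54 (adjusted p = 0.061 without Control 1), among 60 microglial transcription factors (median 0.05). In that list 4 rose and 1 fell with library totals alone, and none rose and 2 fell with upper-quartile factors. Of the 9 genes in these translation and chromatin groups, Eif4a2 and Pou2f2 were called whichever library was left out. The other 7 lost the call at least once, from Gigyf1 (adjusted p = 0.0576 without Control 2) to Batf3 (0.143 without Control 3).

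The intracellular signalling genes that rose were adaptors, kinases, regulators of small GTPases and a calcium channel subunit. Map3k14, the kinase NIK of the noncanonical NF-kB pathway, stood at 35.1, 32.6 and 29.4 CPM in Control and 58.2, 60.5, 58.0 and 60.7 CPM in 8wk STZ (log2 fold change 0.87, SE 0.108, adjusted p = 0.00314). Tnip2, a partner of A20 that restrains NF-kB, was at 34.3, 33.0 and 36.0 CPM in Control and 53.7, 52.9, 61.6 and 68.3 CPM in 8wk STZ (log2 fold change 0.78, SE 0.124, adjusted p = 0.0105). Map3k14 was even across the diabetic libraries, and Tnip2 was higher in 8wk STZ 3 and 4 than in 1 and 2. Rgl2, an exchange factor for Ral, stood at 30.8, 31.8 and 29.1 CPM in Control and 84.3, 88.2, 102 and 94.8 CPM in 8wk STZ (log2 fold change 1.6, adjusted p = 0.000392), and Orai2, a subunit of store-operated calcium channels, at 84.9, 83.1 and 64.9 CPM in Control and 149, 143, 121 and 175 CPM in 8wk STZ (log2 fold change 0.92, SE 0.141, adjusted p = 0.00978). No diabetic library of either gene reached down to the controls.

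Adap2, a GTPase activator for Arf6, stood at 301, 279 and 396 CPM in Control and 574, 588, 573 and 554 CPM in 8wk STZ (log2 fold change 0.81, SE 0.128, adjusted p = 0.0105), while its antisense gene Adap2os had a fold change of 0.87. Ip6k1, which makes inositol pyrophosphate, rose by 1.33, though 14.5% of its exonic sequence also belongs to a predicted gene on the same strand. Traf3ip3, Lat2 and Tec, which act downstream of immune receptors, and Map3k8, the kinase TPL2, rose by 0.90, 0.50, 0.71 and 1.43. Of 43 genes of immune receptor signalling 2 rose and 1 fell (median 0.13), or 7 and 1 with library totals alone. All of these but Lat2, Tec and Map3k8 held in all 7 such fits, and those 3 reached adjusted p-values of 0.0645 without Control 1, 0.0957 without Control 1 and 0.0882 without 8wk STZ 4.

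The lowest p of the whole comparison belonged to Sat1 (ENSMUSG00000025283, chromosome X, 155213132 to 155216449, minus strand), spermidine/spermine acetyltransferase, the rate-limiting enzyme of polyamine breakdown. Sat1 stood at 371, 345 and 395 CPM in Control and 898, 930.3, 1016 and 998 CPM in 8wk STZ, a 2.59-fold rise (log2 fold change 1.37, SE 0.0949, adjusted p = 0.000389). The lowest diabetic library was above 2 times the highest control, and in 4wk STZ 1, 2 and 3 the gene was at 478, 419 and 388 CPM. Among genes known to be induced by stress, Gadd45g rose, at 10.8, 4.68 and 8.74 CPM in Control and 42.9, 33.1, 33.2 and 28.8 CPM in 8wk STZ (log2 fold change 2.09, SE 0.335, adjusted p = 0.0115), as did the nuclear protein Nupr1 by 1.18, Ppp1r15a (GADD34, which reverses the translational block of the integrated stress response) by 0.96 and Ddit3 (CHOP) by 1.41. Of 36 genes of the DNA damage response and p53 targets 4 rose and none fell (median 0.31), Gadd45g, the cell cycle inhibitor Cdkn1a, the p53 inhibitor Mdm4 and the checkpoint kinase Chek2. Sat1 and Gadd45g held in all 7 fits that left out a library, while 6 others lost the call at least once, from Nupr1 (adjusted p = 0.0536 without Control 3) to Ddit3 (0.139 without Control 3).

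Cdkn1a also belongs to a list of 50 genes of the cell cycle and mitosis, of which 3 rose and none fell: Cdkn1a, by 1.27, Cdca2, under 1 CPM in every control, by 4.61, and Fbxo5, an inhibitor of the anaphase-promoting complex, by 2.21. Each lost the call at least once (adjusted p = 0.0889 without Control 1, 0.134 without Control 2 and 0.0693 without Control 2). In that list 40 genes had a fold change above 0 (median 1.01) and 16 were higher without overlap, against 8.91% of all tested genes. Its median by library was 1.07, 1.09, 1.10 and 0.48 in 8wk STZ 1 to 4 and 0.09, -0.16 and 0.19 in Control 1 to 3. The 9 well expressed genes of the list (level 5 or above) had a median of -0.11, and none of them was called.

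A small set of immune genes rose. Siglech, a sialic acid-binding receptor of microglia, stood at 869.6, 688 and 897 CPM in Control and 1426, 1383, 1471 and 1359.5 CPM in 8wk STZ (log2 fold change 0.78, SE 0.131, adjusted p = 0.0135). Apobec1, an RNA-editing cytidine deaminase, was at 43.5, 62.2 and 51.6 CPM in Control and 137, 119, 104 and 110.3 CPM in 8wk STZ (log2 fold change 1.17, SE 0.158, adjusted p = 0.00549). Both had diabetic libraries that lay well above every control, as did the chemokine Ccl3, at 55.4, 42.9 and 54.5 CPM in Control and 84.3, 90.6, 100.4 and 90.4 CPM in 8wk STZ (log2 fold change 0.84, SE 0.134, adjusted p = 0.0113). Il10ra, a chain of the interleukin-10 receptor, stood at 269, 273 and 269 CPM in Control and 361, 367, 360.0 and 375 CPM in 8wk STZ (log2 fold change 0.44, SE 0.0883, adjusted p = 0.029). Its call was lost whichever of the 7 libraries was left out, with an adjusted p of up to 0.0961 without Control 3. Cgas, the cytosolic DNA sensor, Zfp36, which destabilises cytokine mRNA, the costimulatory ligand Icosl and Clec7a (Dectin-1) rose by 0.94, 1.08, 0.55 and 0.48. Lyz2 (lysozyme) and Adora1 (the adenosine A1 receptor) rose by 1.97 and 1.32, but reads of Lyz2 may be split with its paralog Lyz1, and Mybph overlaps 20.1% of the exonic sequence of Adora1.

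Of 28 chemokines and cytokines 1 rose (median 0.37), or 4 with library totals alone, and of 32 genes of NF-kB and innate signalling 1 rose (median 0.10). None of 38 interferon response genes was called by the quasi-likelihood test (median 0.52), although 6 were higher without overlap, 10 had an unadjusted p below 0.05 and DESeq2 called 5 higher. Their median by library was 0.42, 1.24, 0.02 and 0.52 in 8wk STZ 1 to 4 and -0.19, 0.55 and -0.20 in Control 1 to 3, so the groups overlapped. Over all 18957 tested genes, 8.91% were higher without overlap, 2970 had an unadjusted p below 0.05 and DESeq2 called 736 higher. Siglech, Ccl3 and Apobec1 held in all 7 fits that left out a library, while 7 others lost the call at least once, from Lyz2 (adjusted p = 0.064 without 8wk STZ 4) to Adora1 (0.116 without Control 2). Further modest rises that held in all 7 fits were Ivns1abp, the antisense RNA Plxna4os1, the cohesin loader Mau2, the gluconate kinase Idnk and Plekho1, by 0.62, 0.91, 0.90, 0.97 and 0.64. Ddx41, a helicase, rose by 1.37 and lost the call at least once (adjusted p up to 0.0814 without 8wk STZ 4).

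The lists with several calls were also examined library by library. The median difference from Control over the SR and splicing kinase list was 0.33, 0.46, 0.43 and 0.48 in 8wk STZ 1 to 4 and -0.01, -0.09 and 0.04 in Control 1 to 3. Over the Golgi list it was -0.24, -0.22, -0.35 and -0.19, against -0.09, 0.01 and 0.01. Over the lysosomal list it was -0.26, -0.26, -0.27 and -0.23, against -0.00, -0.03 and 0.08. In 4wk STZ 1 to 3 the SR list was at 0.07, 0.11 and -0.03, within or just above the controls, and the lysosomal list at -0.10, -0.20 and -0.12, between both groups.

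**Figure D5:**
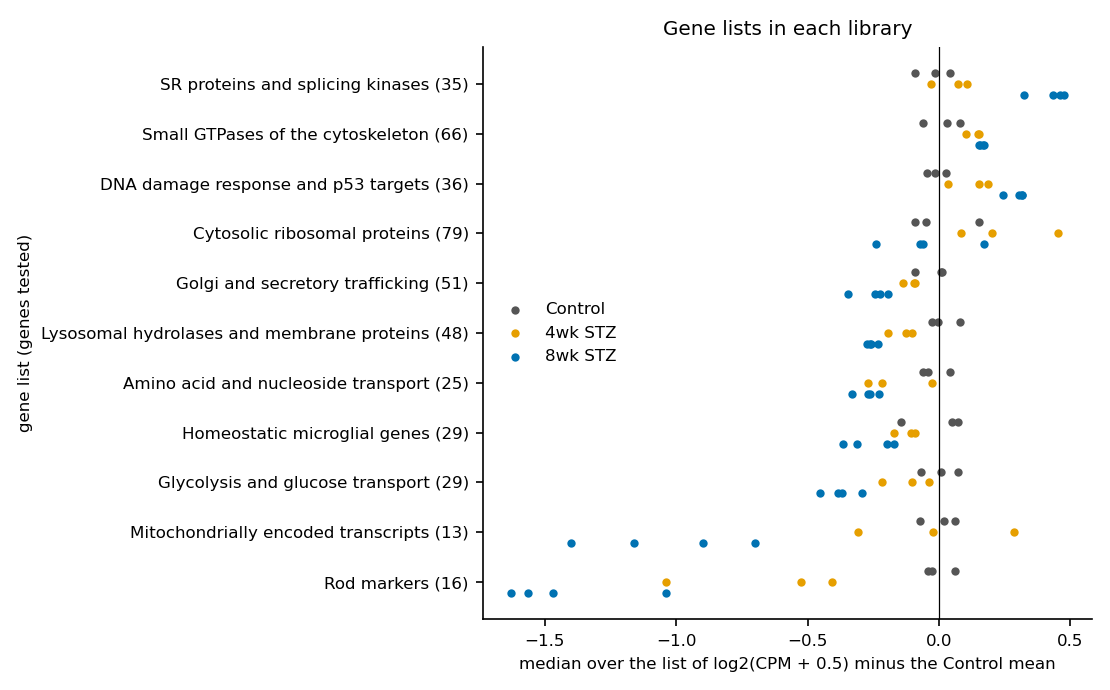
Each point is 1 library, placed at the median over a gene list of log2(CPM + 0.5) minus the Control mean (grey Control, orange 4wk STZ, blue 8wk STZ), with the number of genes tested in parentheses. The 8wk STZ libraries lie at 0.33 to 0.48 for SR proteins and splicing kinases, at -0.19 to -0.35 for Golgi genes and at -1.04 to -1.63 for rod markers.

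RNA of rod photoreceptors was lower in the diabetic libraries. All 16 rod markers fell (median -1.44), and together they took 1.36 ± 0.074% of reads in Control and 0.558 ± 0.0733% in 8wk STZ (mean ± SD, n = 3 and 4). Of the steepest falls of well expressed genes, Rom1, Reep6, Rbp3, Fam57b, Sag, Prom1 and Cdhr1 are photoreceptor genes and Clu and Atp1b2 are shared with glia and neurons, by 1.58 to 1.79. All of these but Clu (adjusted p = 0.0982 without Control 3) were called whichever library was left out, as was Tulp1, a photoreceptor gene among the modest falls.

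Of 16 genes that mark Müller glia or astrocytes 4 fell and none rose (Slc1a3, Slc1a2, Clu and Aldoc, median -0.97, Slc1a2 with an adjusted p of 0.0783 without Control 3), although the summed reads of that list, which includes Apoe, went from 0.467 ± 0.156% to 1.31 ± 0.665%. Other markers of retinal neurons were measured as well. Among the 19 that mark ganglion, amacrine or horizontal cells 3 fell and none rose (median -0.65), Snap25 and Syt1 of synaptic vesicle release and the neurofilament Nefl, by 1.22, 1.19 and 1.40. The call of Nefl was lost at least once (adjusted p = 0.113 without Control 1), and 32.8% of its exonic sequence overlaps the related gene Nefm on the opposite strand. The list took 0.0203 ± 0.000869% of reads in Control and 0.0101 ± 0.00143% in 8wk STZ. None of 12 bipolar cell markers was called by edgeR's quasi-likelihood test, but all 12 had a fold change below 0 (median -1.32), 6 had an unadjusted p below 0.05 and DESeq2 called 3 lower. They took 0.00845 ± 0.0024% and 0.00392 ± 0.00146% of reads. Of 6 tested markers of pericytes and fibroblasts 1 fell, Vtn (vitronectin), by 1.57.

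The 13 mitochondrially encoded transcripts had 9 falls (median -1.07) and took 1.5 ± 0.0807% of reads in Control and 0.830 ± 0.128% in 8wk STZ. Ribosomal RNA genes took 2.61 ± 0.132% and 1.74 ± 0.341%, and Mir6236, which lies in ribosomal RNA sequence, fell by 0.89. None of 10 border macrophage markers (median -0.04, or 0.05 with library totals alone) and none of 9 cone markers (median 0.26) was called by edgeR's quasi-likelihood test. At an unadjusted p below 0.05 these lists held 0 and 1, and DESeq2 called 0 in both. The summed share of the border macrophage markers ran from 0.0353% to 0.066% of reads in Control and from 0.0219% to 0.0953% in 8wk STZ.

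The falls of genes used by microglia and by other retinal cells alike, such as Calr, Cd81, Serpine2, Glb1, Hk1 and Agpat3, stand beside these lower shares of retinal RNA. Their part in those falls was not tested. With the markers of other cells, mitochondrial and ribosomal RNA genes left out of the scaling, 453 genes were called, 182 higher and 271 lower, of which 447 were among the 449.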

How the data were processed

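RNA-seq read counts per gene were analysed for 10 libraries of sorted retinal cells, of which 3 Control and 4 8wk STZ libraries form the comparison. The deposited counts are whole numbers without normalization. STAR, Subread featureCounts, Salmon, edgeR, limma and the build GRCm38 are named, with no roles, per the submitters' processing notes. Not given in the sources used are the gene annotation's release, whether strand was used and how multi-mapping reads were treated. The authors' deposited comparison table holds log2 fold changes, a likelihood ratio score, p-values and FDR, per the file headers, and only its counts of genes were used.

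After 287 repeated entries of 55774 were dropped, genes were filtered with filterByExpr by group, scaled by TMM, and fitted in edgeR 4.0.16 (R 4.3.3) with 1 mean per group over the 10 libraries (7 residual degrees of freedom). The robust quasi-likelihood F-test was used with Benjamini-Hochberg adjustment over all tested genes. The SE printed is the absolute log2 fold change divided by the square root of the F statistic, not a separately estimated standard error. P-values measure the spread between animals. The members, the 87 gene lists and the rules were chosen with earlier results of these data known, and the families, the hydrophobic stretch and the promoter element after the calls were seen. Named genes were chosen as follows: the 15 lowest p in each direction among called genes of at least 5 mean log2 CPM that changed by less than 1 on the log2 scale, without overlap and called in all 7 fits that leave out a library; the 10 largest changes each way at that level; and from each list up to 6 called genes, or 2 of the most expressed. Others are named because they share a described function, after their values were seen. Predicted genes and pseudogenes were not named, and a few genes that the rule selects are not reported here. Of a list without a call, only its counts and median are given.

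Coding sequences and positions come from GENCODE vM21 (GRCm38), promoters from RefSeq (GRCm38.p6). Gene list members were matched by symbol. Per-library list values use log2(CPM + 0.5). The procedure was tested on simulated data with changes in well expressed genes. It called 13 of 100 changes of 0.5 on the log2 scale and 81 of 100 changes of 1. The lack of a call, in a gene or a whole list, therefore does not show that a modest change was absent. DESeq2 1.42.0, limma 3.58.1 (voom), other scalings and filters, a replicate block and leaving out libraries were tried as alternatives.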

Additional observations from a re-analysis of the deposited data

Results flagged for a closer look

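In groups of 4, a library was marked where its gap to the nearest other library as a share of the whole range passed Dixon's 95% critical value, which chance does in about 1 of 20 groups. Over 238 values examined, 12 were marked.

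Among genes, the marked level was 229.7 CPM for Plod1 in 8wk STZ 1, 1486 CPM for Cd53 in 8wk STZ 4, 68.2 CPM for Hk1 in 8wk STZ 3, 42.3 CPM for Tec in 8wk STZ 3, 72.8 CPM for Adora1 in 8wk STZ 4 and 371 CPM for Bin1 in 8wk STZ 2. Tec, Plod1 and Bin1 were nearer to Control there than in the other diabetic libraries, and Cd53, Hk1 and Adora1 farther. Without 8wk STZ 4, the log2 fold change of Adora1 was 0.99 (adjusted p = 0.0402), against 1.32 with it.

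Among list medians, the marked values were -0.12 for well expressed genes with a hydrophobic stretch in 8wk STZ 3, -0.26 for heat shock proteins and chaperones in 8wk STZ 3, -0.0311 for microglial transcription factors in 8wk STZ 2, -0.0324 for Toll-like and C-type lectin receptors in 8wk STZ 2, 0.24 for the DNA damage response and p53 targets in 8wk STZ 3 and 0.48 for the cell cycle and mitosis in 8wk STZ 4. All are log2 differences from the Control mean.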

How the results depend on the processing

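DESeq2 called 1451 genes (736 higher, 715 lower) and edgeR's likelihood ratio test 1166 (626 and 540), against 449 (184 and 265). Scaling by totals alone gave 356 genes higher and 183 lower. A fit of only the 7 libraries of Control and 8wk STZ called 463 genes, 206 higher and 257 lower. Of these, 370 were among the 449. Named genes not called in that fit include Ssr2, Gpaa1, Pigu, Ctsl, Ctsc, Ptgs1, Mboat7, Map3k8, Clec7a and Bin1. Without Control 3 and 4wk STZ 3 together 275 genes were called, 137 higher and 138 lower. Named genes not called there, though called whichever single library was left out, were Laptm5, Lpcat3, Traf3ip3 and Syt1. Leaving out 1 library at a time gave 206 to 255 calls, 80 to 106 higher and 124 to 158 lower, from fewer samples. The cause of the other differences was not tested. None of the 449 genes had the opposite sign under any alternative.

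Numbers in the labels are shared by both groups. Same-numbered libraries of Control and 8wk STZ deviated from their group means with correlations of 0.02, -0.02 and 0.01. Such low correlations over many genes cannot show whether same-numbered libraries shared a batch that acted on some genes, which was not tested. With the replicate number as a block, 44 genes were called, 20 higher and 24 lower, all among the 449, and 29 of the 179 called genes named here were among them. Genes called whichever library was left out but not with this block include Calr, Stt3a, Emc1, Csf1r, Cd81 and Hk1.

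The log2 fold change of Hspa5 ran from -0.27 (without Control 3) to 0.13 (without Control 2). With library totals alone, medians changed sign for Cathepsins and cystatins (0.066), fatty acid metabolism (0.0529), the actin cytoskeleton (0.10), microtubules and motors (0.0030), cytokine and growth factor receptors (0.0685), hnRNP and RNA-binding proteins (0.0276) and nuclear subunits of oxidative phosphorylation (0.10), and with upper-quartile factors for the spliceosome core (-0.0104) and growth factors and matrix proteins (-0.0184). Of lists without a call, medians changed sign with totals alone for cytosolic ribosomal proteins (0.0311), the proteasome (0.0893), the insulin, AKT and mTOR pathway (0.0872) and border macrophage markers (0.0549), and with upper-quartile factors for autophagy (-0.0228), ribosome biogenesis (-0.0129) and NRF2 targets and redox enzymes (-0.0249). Of the 179 called genes named here, 112 lost the call at least once when a library was left out. Counts measure reads and not molecules, and at this depth their precision is set by the number of animals.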
